A study of Mus musculus with 18 samples.

Results

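The lysosome is described here through 36 genes for its acidification, digestion and membrane, picked by name from the 21859 rows of a count table of mouse retinal pigment epithelium (RPE), the pigmented layer behind the photoreceptors. All 36 had a row, and all 36 were among the 15944 genes with enough counts to test. By role they were 5 subunits of the V0 sector and 8 of the V1 sector of the proton pump V-ATPase, 2 accessory proteins of that pump, 12 hydrolases, 2 soluble proteins that are not enzymes, 6 membrane proteins and the transcription factor Tfeb. Bulk RNA was sequenced from young mice (Young, 7 libraries), old mice (Old, 4), old mice that received AAV2-tTA (Old control, 3) and old mice that received AAV2-tTA and TRE-OSK (Old OSK, 4). AAV2 denotes a vector made from adeno-associated virus. The protein tTA switches on genes behind the TRE promoter. Old control and Old OSK share age and transactivator and differ in TRE-OSK, which carries the OSK genes Pou5f1 (Oct4), Sox2 and Klf4. No group received a TRE construct without OSK, so the OSK genes and the added construct cannot be told apart. Strain, ages in numbers, doses, times and the cells that took up the vector are not given in the sources used here. The labels do not say that replicates came from separate mice, so p-values measure the spread between these libraries.

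The V-ATPase pumps protons into the lysosome. Its membrane-bound V0 sector carries the protons, and its cytosolic V1 sector hydrolyses ATP. The acid lets the hydrolases work on material delivered by endocytosis, autophagy and, in the RPE, phagocytosis of photoreceptor outer segments, which RPE cells take up every day for life. Lamp1 and Lamp2 are the abundant glycoproteins of the lysosomal membrane, while Npc1 and Npc2 hand cholesterol out of the lumen. TFEB, made by Tfeb, binds E-box-like sites with the core CACGTG near many lysosomal genes, a set of sites often called the CLEAR element.

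Promoter windows of RefSeq (build GRCm38.p6), running from 250 bases before to 50 bases after each gene's start, were matched by symbol for 30 of the 36 genes. The core CACGTG, which reads the same on both strands, was in at least 1 window of 12 of these 30 genes (40.0%), against 2187 of 27025 genes (8.1%) of the whole promoter table and 10.8% of the tested genes with a window. The longer palindrome TCACGTGA, which contains the core, was in 7 of the 30 (23.3%), against 1.1% of the whole table and 1.9% of the tested genes with a window. As these sites are known near many lysosomal genes, a higher share in a list of lysosomal genes was foreseeable. Windows with the core were most frequent among the membrane proteins (4 of 5 matched genes) and V0 subunits (3 of 5), followed by hydrolases (4 of 11) and V1 subunits (1 of 4). A match describes letters in a window and is not a measured binding site. The stretches below were chosen to show how the core is placed in genes of different roles that return in the results. Each holds no GENCODE exon of its gene, and all but that of Atp6v1a, which lies inside the annotated gene between exons, are upstream of the gene. In each sequence the core, or TCACGTGA where that is complete, is in capitals. Lamp1 (chr8:13159070-13159160, plus strand) holds 4 cores that begin 61, 45, 28 and 15 bases before the start. Atp6v0b (chr4:117887334-117887395, minus strand) holds 2, beginning 36 and 18 bases before it. Atp6v1a (chr16:44139306-44139420, minus strand) holds 1, beginning 131 bases before it. Gla (chrX:134601126-134601255, minus strand) holds 2, beginning 227 and 194 bases before it. Gaa (chr11:119267793-119267886, plus strand) holds 1, beginning 140 bases before it.
Lamp1: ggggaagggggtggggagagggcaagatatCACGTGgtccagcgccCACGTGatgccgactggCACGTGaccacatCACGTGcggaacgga
Atp6v0b: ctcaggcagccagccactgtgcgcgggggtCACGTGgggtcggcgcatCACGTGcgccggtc
Atp6v1a: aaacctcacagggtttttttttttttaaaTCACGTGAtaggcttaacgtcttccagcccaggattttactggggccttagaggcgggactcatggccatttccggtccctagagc
Gla: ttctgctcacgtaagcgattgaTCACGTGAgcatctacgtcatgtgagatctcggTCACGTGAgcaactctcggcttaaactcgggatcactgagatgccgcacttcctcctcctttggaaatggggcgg
Gaa: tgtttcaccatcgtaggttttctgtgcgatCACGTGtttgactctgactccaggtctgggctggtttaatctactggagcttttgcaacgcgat

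Library totals lay between 18104828 and 32348136 counts, and the least counted of the 36 genes, Tfeb, had at least 386 counts in every library. Values are CPM, counts scaled to library size after trimmed-mean normalization. Pou5f1 and Sox2 separated the 4 Old OSK libraries from the rest: Pou5f1 was at 50.1 to 97.4 CPM there and at no more than 3.75 CPM in each of the other 14. Sox2 was at 70.0 to 115 CPM there and at no more than 15.9 CPM elsewhere, whereas Klf4, at 155 to 432 CPM there, overlapped with Old (11.7 to 216 CPM). Of 10 RPE markers, Best1 was near the detection limit in all groups (mean 1.21 CPM in Young), whereas Rpe65 averaged 5310 CPM in Young. The 10 RPE markers summed to 40910 to 67840 CPM in Young. The sums were 27620 to 48670 CPM in Old, 20760 to 64420 CPM in Old control and 15520 to 30650 CPM in Old OSK. The lowest sums of their groups were those of Old replicate 4 (27620) and Old control replicate 2 (20760), which therefore stood within the Old OSK range. Those libraries also held the lowest values of most lysosomal genes in their groups: Old control replicate 2 was the lowest of its group for 34 of the 36, all but Lamp1 and Npc1, and Old replicate 4 for 27. In bulk RNA, fewer cells of a type and less RNA per cell cannot be told apart.

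**Figure D1:**
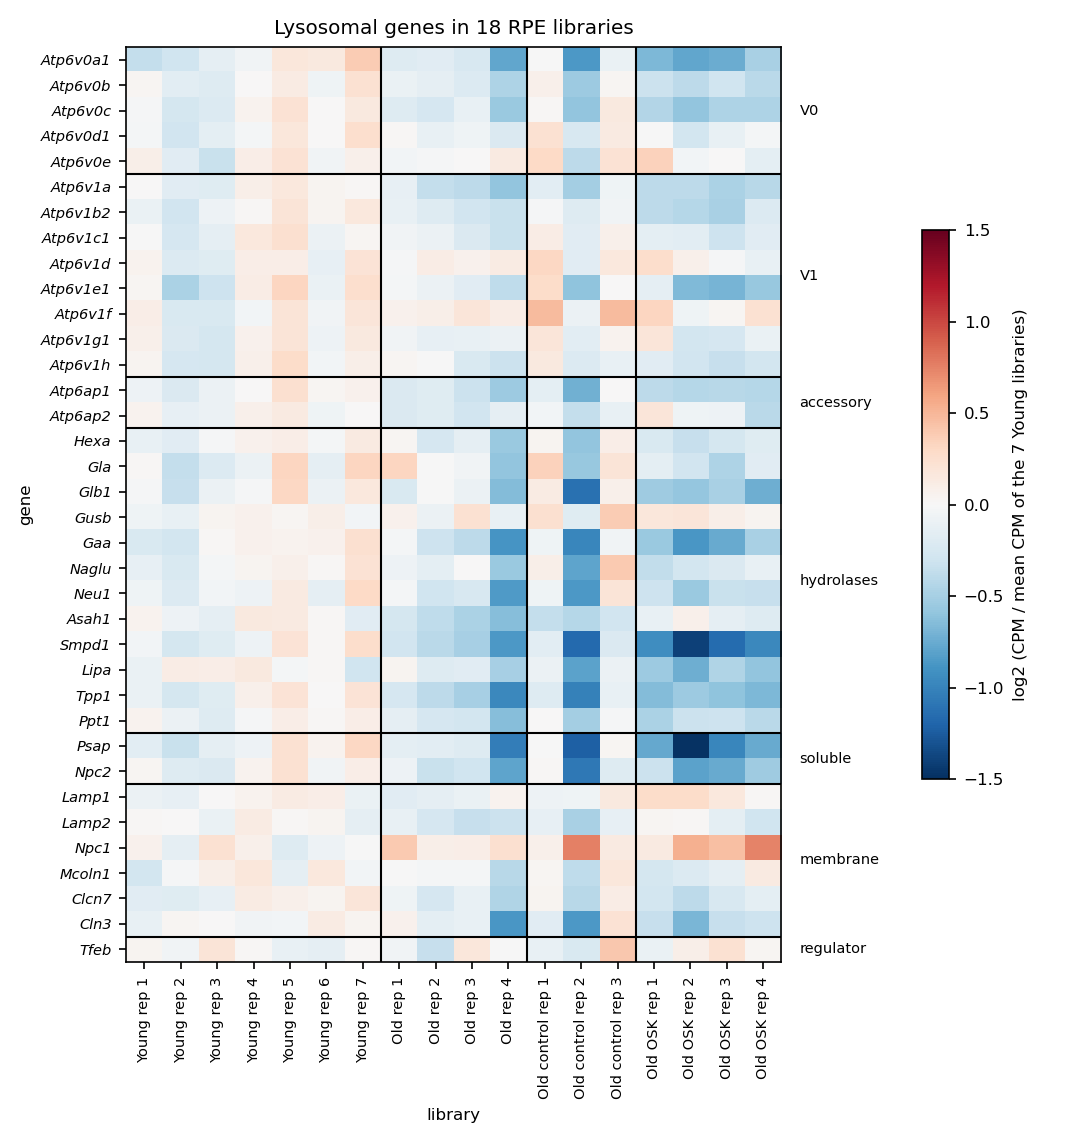
Level of each of the 36 genes (rows, grouped by role) in each of the 18 libraries (columns, grouped as Young, Old, Old control and Old OSK), as the log2 of its CPM over the mean CPM of the 7 Young libraries; blue is below and red above that mean. Old replicate 4 and Old control replicate 2 are as blue as the Old OSK libraries in many rows, whereas Lamp1 and Npc1 are not.

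The level of these genes in Young RPE spanned a wide range. Per kilobase of annotated exon, Psap stood far above all others with 2460 ± 397 CPM per kb (SD, n = 7). Psap encodes prosaposin, the precursor of the saposins that present sphingolipids to their hydrolases. The next were the V1 subunit Atp6v1g1 (161 ± 19.4), the V0 subunit Atp6v0b (157 ± 16.3), the acid sphingomyelinase gene Smpd1 (153 ± 20.7) and the proton-channel subunit Atp6v0c (147 ± 17.3), all in CPM per kb, which overlapped within 1 SD. At the low end were Tfeb (4.5 ± 0.348) and Npc1 (3.3 ± 0.329), in the same unit. The exon length is the union over all annotated isoforms, so genes with long alternative exons, such as Npc1, are placed lower than by a single transcript. Psap was first also in Old (1950 ± 499, n = 4), Old control (2000 ± 825, n = 3) and Old OSK (1260 ± 271, n = 4).

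Spread between replicates differed by group and by gene. The median coefficient of variation of CPM over the 36 genes was 11.0% in Young, 12.2% in Old, 23.9% in Old control and 8.5% in Old OSK. Within Old control it ran from 4.61% for Asah1 to 41.2% for Psap. Over all 18 libraries the highest value of Psap was 3.48 times the lowest and that of Smpd1 3.17 times, against 1.36 times for Lamp1. By group means, 25 of the 36 genes were highest in Young and 25 were lowest in Old OSK.

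The first comparison set Old against Young. Asah1, the acid ceramidase gene, and Atp6v1a, the catalytic subunit of V1, were lower in Old RPE beyond the spread between libraries (edgeR quasi-likelihood, adjusted p under 0.05), and none of the 36 was called higher. Those 2 of 36 calls compare with 4.16% of all tested genes called lower and 5.4% called higher (9.56% in either direction), so the share of calls was near the background. The signs leaned one way: 31 of the 36 log2 fold changes were negative, with a median of -0.21 and a range of -0.5 to 0.21, against 50.7% negative and a median of -0.0 over all tested genes. The medians by role were -0.22 for V0, -0.14 for V1, -0.27 for the hydrolases and -0.16 for the membrane proteins. At an unadjusted p under 0.05, 8 members were lower and 0 higher, where 13.4% of all tested genes were lower and 15.6% higher. The size of the lean depended in part on Old replicate 4. Without it 31 fold changes were still negative, but the median was -0.12. Leaving out any other single library gave medians of -0.19 to -0.26.

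Asah1 ranged from 136.7 to 170.7 CPM in Young, with a median of 155.5. Its Old libraries were at 128.2, 118.5, 111.1 and 99.1 CPM. Every Old library was below every Young one, and the log2 fold change was -0.43 ± 0.09 (SE), with an edgeR adjusted p of 0.00701. It kept its call when any 1 of the 11 libraries was left out, with adjusted p from 0.00498 to 0.0377. Asah1 hydrolyses ceramide to sphingosine and a fatty acid, the last step of sphingomyelin breakdown. The difference had the same size but was not called when only the libraries with no M in their names were used (4 Young and 4 Old, adjusted p 0.0858, log2 fold change -0.43), a fit that called 1.26% of all genes. In that fit 29 of the 36 fold changes were negative, with a median of -0.12. The letter M is unexplained in the labels and marks 3 of the 7 Young libraries and none of the Old. It also marks Old control replicates 2 and 3 and Old OSK replicate 4, so the contrasts with these groups are unbalanced in it too.

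Atp6v1a ranged from 367.2 to 467.7 CPM in Young, with a median of 424.2. The Old libraries were at 382.6, 325.2, 317.8 and 276.7 CPM. Old replicate 1 lay inside the Young range and the rest below it. The log2 fold change was -0.36 ± 0.10 (SE), with an edgeR adjusted p of 0.04. This call was at the threshold: it held in 3 of the 11 fits that leave out 1 library and had an adjusted p of up to 0.182 in the others, the highest without Old replicate 4. The other V1 subunits gave fold changes from -0.23 (Atp6v1b2) to 0.11 (Atp6v1f), and those of V0 from -0.32 (Atp6v0a1) to 0.02 (Atp6v0e). Atp6v0c, which has the lowest p of the V0 subunits, was at -0.27 ± 0.13 (adjusted p 0.181). The accessory gene Atp6ap1 was at -0.31 ± 0.12 (adjusted p 0.101).

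The glycosidases and the acid lipase gave smaller or more variable differences with age. Gaa, which breaks down glycogen, averaged 384.5 ± 46.6 CPM in Young and 297.3 ± 69.7 in Old (log2 fold change -0.37 ± 0.18, edgeR adjusted p 0.174). Neu1, the sialidase, averaged 109.3 ± 13.5 and 87.37 ± 19.5 CPM (-0.32 ± 0.17), and Hexa, the alpha subunit of beta-hexosaminidase, 201.0 ± 15.9 and 173.5 ± 28.6 CPM (-0.21 ± 0.12). Glb1, the beta-galactosidase, was at -0.22 ± 0.19, Naglu, which acts on heparan sulfate, at -0.18 ± 0.16, and Gla, the alpha-galactosidase, at -0.05 ± 0.18. Lipa, which hydrolyses cholesteryl esters and triglycerides, was at -0.19 ± 0.13. In each of these 7 genes the Old and Young ranges overlapped, and Old replicate 4 was the lowest Old library.

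Among the other lumenal proteins, the values of several hydrolases were as far below Young as the called genes but with more spread. Smpd1, which hydrolyses sphingomyelin to ceramide, ranged from 424.8 to 613.1 CPM in Young with a median of 496.0, and its Old libraries were at 418.5, 386.5, 361.9 and 279.8 CPM. The groups did not overlap, as was also true in this direction for Asah1 and Atp6ap2 and for 5.61% of all tested genes, yet the log2 fold change of -0.5 ± 0.17 was not called (edgeR adjusted p 0.0764). Tpp1, a tripeptidyl peptidase, was at -0.5 ± 0.16 (adjusted p 0.0571), and Ppt1, which removes palmitate from proteins, at -0.31 ± 0.11 (adjusted p 0.0655). Loss of TPP1 or PPT1 causes neuronal ceroid lipofuscinosis, a storage disease with retinal degeneration. The cholesterol carrier Npc2 was at -0.35 ± 0.18 (adjusted p 0.203). Psap was at -0.34 ± 0.25 (adjusted p 0.386), with Old libraries at 6106, 6053, 5911 and 3288 CPM, of which all but replicate 4 lay inside the Young range of 5340 to 8389 CPM. Gusb, which encodes beta-glucuronidase, averaged 35.7 ± 1.77 CPM in Young and 36.42 ± 4.08 in Old.

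Of the membrane proteins, Lamp2 had the lowest p. It ranged from 545.7 to 653.6 CPM in Young with a median of 608.2, and its Old libraries were at 554.6, 503.6, 471.7 and 478.4 CPM. Only Old replicate 1 reached the Young range, and the log2 fold change was -0.26 ± 0.10 (edgeR adjusted p 0.0918). Lamp1 was at -0.08 ± 0.08 and the chloride and proton exchanger gene Clcn7 at -0.21 ± 0.11. Npc1 was the member with the highest fold change, 0.21 ± 0.13 (adjusted p 0.314). Tfeb averaged 25.53 ± 1.97 CPM in Young and 24.75 ± 3.54 in Old, a log2 fold change of -0.04 ± 0.12 (adjusted p 0.839).

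Cell-type markers moved with the same contrast. Of 15 macrophage and microglia markers, 11 were called higher in Old. Csf1r held most of their sum in Young and was not among them, and the sum of the other 14 was 69.8 to 105.0 CPM in Young, 335.7 to 775.1 in Old, 458.7 to 721.8 in Old control and 601.8 to 762.6 in Old OSK. Of the 10 RPE markers 9 had negative fold changes and 0 were called, with a median log2 fold change of -0.35. With the mean log2 CPM of the macrophage list as a covariate, 28 of the 36 lysosomal fold changes were positive (median 0.29) and 0 were called, while 0 of 15944 genes (0.0%) were called in that fit. Every Young sum of the 14 markers lay below every sum of the other groups, so that fit can hardly separate age from the list. No conclusion is drawn from its signs. With the RPE list as a covariate, 27 were negative (median -0.09), Asah1 (-0.41), Smpd1 (-0.29) and Atp6v1a (-0.27) were called lower, and Atp6v1f (0.25, adjusted p 0.0413) higher, where 3.92% of all genes were called lower and 2.98% higher. Summed rod markers were 450.6 to 3373 CPM in Young and 2375 to 8038 CPM in Old, with 0 of 10 called. With the rod list as a covariate 31 lysosomal fold changes were negative with a median of -0.13, and 1 was called lower (1.27% of all genes). Called lower in Old were 3 of 7 genes of the melanocyte list (Pmel, Tyr and Ednrb), 2 of 7 stroma markers (Col1a2 and Pdgfrb) and 1 of 6 Muller glia markers (Gfap), against 4.16% of all tested genes. The melanocyte list holds pigment genes (Dct averaged 3544 CPM in Young), so in this pigmented layer it does not mark melanocytes alone. The part of these cell types in the differences was not tested.

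**Figure D2:**
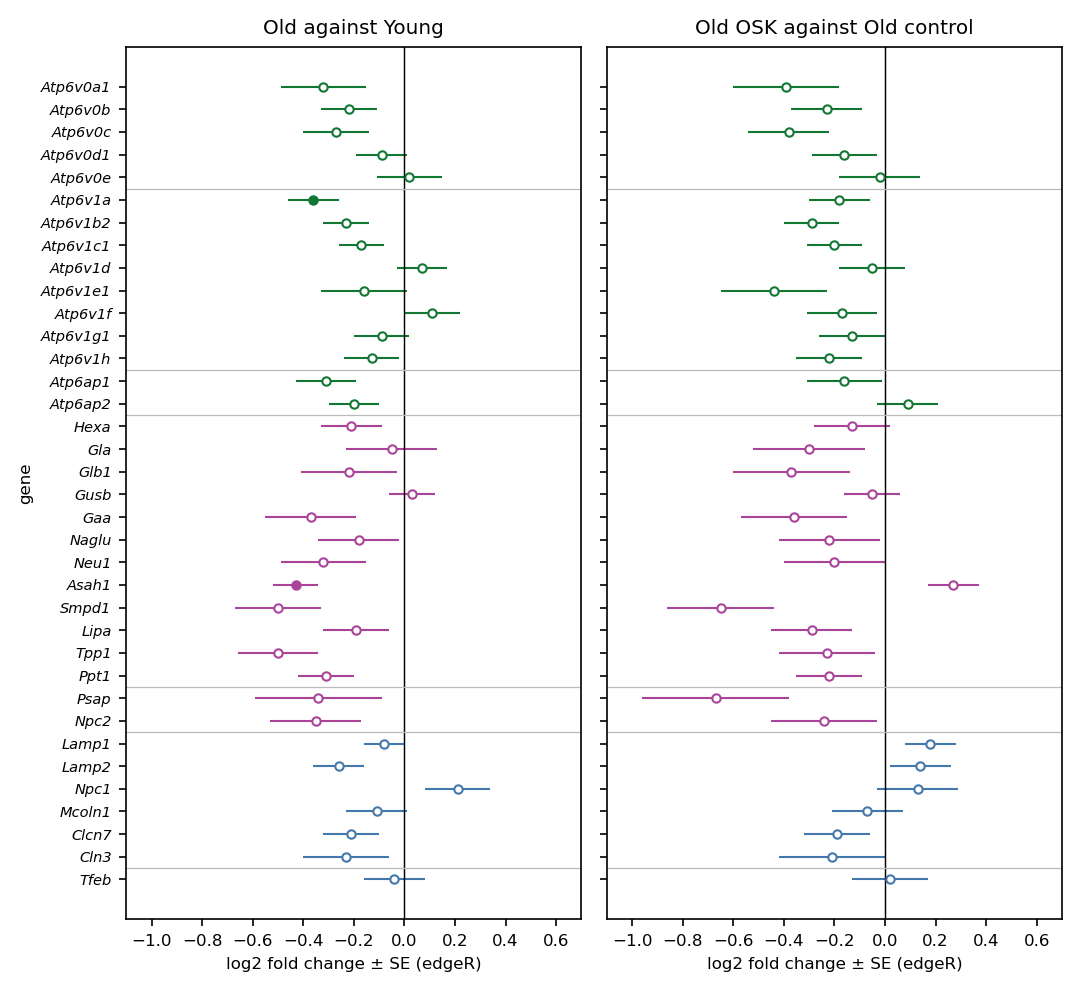
Log2 fold change ± SE (x axis, edgeR) of each of the 36 genes (y axis) in Old against Young (left) and Old OSK against Old control (right), with V-ATPase genes in green, lumenal proteins in purple, and membrane proteins with Tfeb in blue; filled points have an adjusted p under 0.05. Asah1 and Atp6v1a are filled on the left and no point is filled on the right, where Asah1 lies at 0.27 and all V0 and V1 subunits lie below 0.

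The second comparison set Old OSK against Old control, the groups that differ in TRE-OSK. No member was called in either direction, where 0.408% of all tested genes were called higher and 0.32% lower (0.728% in either direction). At an unadjusted p under 0.05, 1 member was higher and 4 were lower, where 13.3% of all tested genes were higher and 13.0% lower. DESeq2 called 1 member, Smpd1, lower (adjusted p 0.0462), where it called 4.55% of its genes lower. The signs again leaned negative, in 30 of 36 members with a median of -0.2, against 52.9% and -0.03 over all tested genes. The roles differed in sign: all 13 V0 and V1 fold changes were negative (median -0.2), as were 11 of the 12 hydrolases, while 3 of the 6 membrane proteins were positive.

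Smpd1 had the lowest p. Its Old control libraries were at 455.8, 227.1 and 437.9 CPM and its Old OSK libraries at 267.1, 193.3, 228.3 and 261.1 CPM. The groups overlapped through Old control replicate 2 alone. The log2 fold change was -0.65 ± 0.21 (edgeR adjusted p 0.0893). Psap was at 6727, 2883 and 6877 CPM in Old control and at 3967, 2408, 3417 and 4006 CPM in Old OSK, with a log2 fold change of -0.67 ± 0.29 (adjusted p 0.162). Again Old control replicate 2 lay inside the Old OSK range.

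Among the pump subunits, Atp6v0c was at 503.0, 328.5 and 549.1 CPM in Old control and at 364.7, 329.3, 358.9 and 358.8 CPM in Old OSK, a log2 fold change of -0.38 ± 0.16 (edgeR adjusted p 0.145). Atp6v1b2, a V1 subunit, was at 354.8, 315.0 and 348.0 CPM in Old control and at 275.5, 267.4, 257.8 and 311.4 CPM in Old OSK. This was the only member whose Old OSK libraries all lay below the Old control libraries, by a gap of 315.0 to 311.4, where 5.84% of all tested genes were so arranged. Its log2 fold change was -0.29 ± 0.11 (adjusted p 0.127). Atp6v1e1 was at -0.44 ± 0.21 (adjusted p 0.2) and Atp6ap1 at -0.16 ± 0.15 (adjusted p 0.524).

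Gaa averaged 311.0 ± 101 CPM in Old control and 243.0 ± 29.8 in Old OSK (log2 fold change -0.36 ± 0.21, edgeR adjusted p 0.299), and Glb1 70.01 ± 28.4 and 54.05 ± 3.86 CPM (-0.37 ± 0.23, adjusted p 0.309). The SD of Old control was larger than the difference of the means in both. Lipa (-0.29 ± 0.16), Gla (-0.3 ± 0.22), Tpp1 (-0.23 ± 0.19), Ppt1 (-0.22 ± 0.13), Naglu (-0.22 ± 0.20), Neu1 (-0.2 ± 0.20) and Hexa (-0.13 ± 0.15) had adjusted p from 0.264 to 0.626.

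Asah1 and the LAMP genes had the opposite sign to most members. Asah1 was at 120.2, 115.1 and 126.2 CPM in Old control and at 142.3, 163.2, 140.9 and 134.5 CPM in Old OSK. All Old OSK libraries were above all Old control libraries, as for 6.55% of all tested genes, and the log2 fold change was 0.27 ± 0.10 (edgeR adjusted p 0.126). It was not called in any of the 18 alternative fits, in which its adjusted p with 1 library left out was 0.125 to 0.374. Lamp1 was at 233.9, 236.0 and 274.0 CPM in Old control and at 299.7, 300.4, 276.8 and 250.6 CPM in Old OSK, a log2 fold change of 0.18 ± 0.10 (adjusted p 0.246). Only Old OSK replicate 4 overlapped the Old control range. Lamp2 was at 0.14 ± 0.12 and Npc1 at 0.13 ± 0.16, whereas Clcn7 was at -0.19 ± 0.13 and Cln3 at -0.21 ± 0.21. Tfeb averaged 26.45 ± 6.5 CPM in Old control and 26.74 ± 2.54 in Old OSK (log2 fold change 0.02 ± 0.15, adjusted p 0.965).

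**Figure D3:**
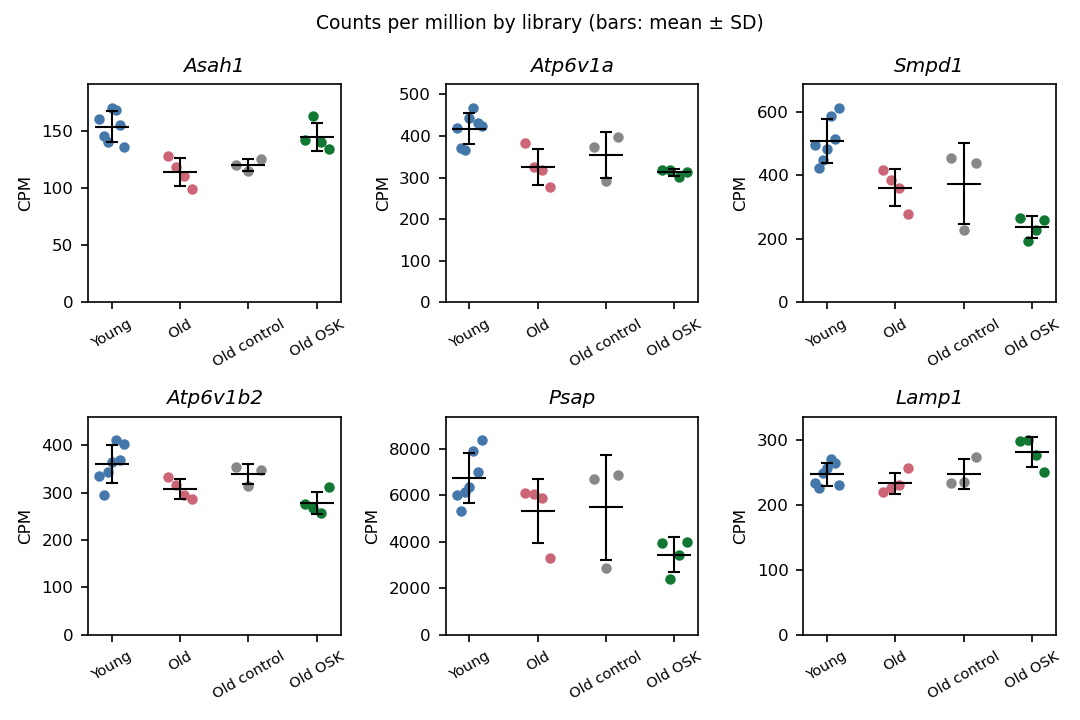
CPM (y axis, from 0) of 6 genes in each library, by group (x axis), with black bars for the mean ± SD of the group (n = 7 Young, 4 Old, 3 Old control, 4 Old OSK). For Smpd1 and Psap the lowest Old control point is replicate 2, at 227.1 and 2883 CPM, within the Old OSK points, whereas the 3 Asah1 points of Old control lie between 115.1 and 126.2 CPM.

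This contrast depended on single libraries. Without Old control replicate 2, 13 members were called lower: Atp6v0a1, Atp6v0b, Atp6v0c, Atp6v1e1, Atp6ap1, Glb1, Gaa, Naglu, Smpd1, Lipa, Tpp1, Ppt1 and Psap. In that fit 11.6% of all tested genes were called lower. The log2 fold changes there were -0.94 for Smpd1 (edgeR adjusted p 0.00572), -1.0 for Psap (adjusted p 0.0208) and -0.6 for Atp6v0c (adjusted p 0.0119), and no member was called higher. Without Old OSK replicate 4, Atp6v1b2 was the 1 member called, at a background of 5.31% called lower. Leaving out any other library of the compared groups gave 0 calls. The negative lean moved as well. Without Old control replicate 3, 24 of 36 fold changes were negative (median -0.09), and without replicate 1, 29 were (median -0.12). Without Old control replicate 2, 33 were negative (median -0.36). Leaving out 1 Old OSK library left 29 to 31 negative, with medians of -0.17 to -0.25.

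RPE markers differed in the same direction and by more. Of the 10, 9 had negative fold changes in Old OSK, with a median log2 fold change of -1.05 and 0 called. Across the 18 libraries Psap and Smpd1 were low where the summed RPE markers were low, and Lamp1 was not. With the RPE list as a covariate, 29 of the 36 lysosomal fold changes were positive, with a median of 0.12 and 0 called (0.1% of all genes called); Smpd1 was then at -0.11, Psap at 0.07 and Atp6v0c at -0.01. The positive fold changes of Asah1 (0.32), Lamp2 (0.25) and Lamp1 (0.17) kept their sign in that fit. Only Old control replicate 2 had an RPE sum (20760 CPM) inside the Old OSK range of 15520 to 30650 CPM. Replicates 1 and 3 were at 64420 and 55530 CPM. That fit therefore separates OSK from the list poorly, and no conclusion is drawn from its signs. Whether OSK changes the markers themselves was not tested. The summed rod markers, which give photoreceptor RNA in the samples, were 1866 to 19730 CPM in Old control, the highest in replicate 2, and 3123 to 16710 CPM in Old OSK. With the rod list as a covariate 29 members were negative and 0 were called (0.847% of all genes called).

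**Figure D4:**
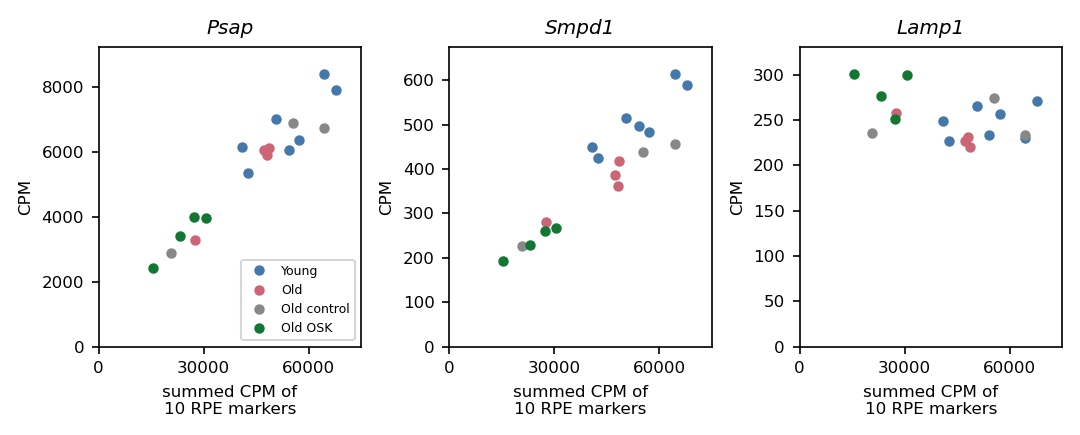
CPM of Psap, Smpd1 and Lamp1 (y axes, from 0) in each of the 18 libraries against the summed CPM of 10 RPE markers in that library (x axis), coloured by group. For Psap and Smpd1, Old replicate 4 and Old control replicate 2 lie at the low end near the Old OSK libraries (Smpd1 of Old replicate 4, at 279.8 CPM, just above all 4 of them), while Lamp1 stays between 220.2 and 300.4 CPM throughout.

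The third comparison, Old control against Old, bears on AAV2-tTA, in which vector, tTA and delivery cannot be told apart. These groups also differ in the letter M, which marks Old control replicates 2 and 3 and no Old library. No member and 0 of 15944 genes (0.0%) were called by edgeR, and 0 by DESeq2, and 596 genes (3.74%) had an unadjusted edgeR p under 0.05, none of them a member. Of the 36 fold changes 35 were positive, with a median of 0.09 (all tested genes 0.04) and a range of -0.09 to 0.19. This lean depended on single libraries: leaving out Old control replicate 1 or replicate 3 left 17 of 36 negative, and leaving out Old replicate 4 left 14 negative. Without Old control replicate 2, in contrast, 35 were positive with a median of 0.27. The lowest p of each role belonged to Atp6v0d1 (0.15 ± 0.13), Atp6v1c1 (0.18 ± 0.11), Atp6ap1 (0.06 ± 0.15), Ppt1 (0.16 ± 0.13), Psap (0.04 ± 0.30) and Clcn7 (0.14 ± 0.13), with adjusted p from 0.9 to 0.993, and Tfeb was at 0.10 ± 0.15.

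Other genes of the lysosome, from lists beside the 36, moved in both directions. With age, negative fold changes were found in 19 of 23 other hydrolases and cofactors and 12 of 16 other membrane and sorting proteins. The same held for 11 of 16 nutrient-sensing genes, 8 of 12 cathepsins and legumain and 5 of 9 further V-ATPase subunits. Among all tested genes 50.7% were negative, so the negative lean with age was not confined to the 36. Of 9 further V-ATPase subunits tested, 2 were called higher and 0 lower with age, where 5.4% of all tested genes were called higher and 4.16% lower. Atp6v0d2, a V0 isoform best known from osteoclasts and macrophages, was at 0.45 to 1.04 CPM in Young and at 6.466, 3.71, 9.991 and 6.037 CPM in Old, and rose by 3.19 ± 0.27 (log2, edgeR adjusted p 4.73e-06). Tcirg1, the a3 isoform of the proton-carrying subunit, rose from 17.17 to 26.88 CPM on average (0.65 ± 0.14, adjusted p 0.0115). Their ubiquitous counterparts Atp6v0d1 (-0.09 ± 0.10) and Atp6v0a1 (-0.32 ± 0.17) had negative fold changes. Both isoforms that rose did so beside the macrophage markers given above. With that list as a covariate, a fit that called 0 of 15944 genes, the log2 fold change of Atp6v0d2 was 2.61 and that of Tcirg1 -0.57. That fit can hardly separate age from the list, so no conclusion is drawn from these values.

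Of 12 cathepsins and legumain, 1 was called higher and 3 lower in Old, against the same 5.4% and 4.16% of all tested genes. Cathepsin S (Ctss), typical of antigen-presenting cells, rose by 2.9 ± 0.23 to a mean of 77.88 CPM (edgeR adjusted p 3.85e-06). Ctsc (-0.49 ± 0.15), Ctsf (-0.29 ± 0.09) and Ctsk (-0.53 ± 0.16) fell, with adjusted p from 0.0422 to 0.046. Cathepsin D (Ctsd), the main aspartic protease of the RPE lysosome, was at -0.18 ± 0.19 (adjusted p 0.556). Of 23 further hydrolases and cofactors, Acp5 rose (0.71 ± 0.19, adjusted p 0.0289) and Galc, which degrades galactosylceramide, fell (-0.41 ± 0.10, adjusted p 0.0199). Mfsd8 was the 1 of 16 other membrane and sorting proteins called, lower at -0.45 ± 0.13 (adjusted p 0.0395), and Lamtor2 the 1 of 16 nutrient-sensing genes, higher at 0.43 ± 0.11 (adjusted p 0.0244). The calls of Ctsc, Ctsf and Ctsk each held in 2 of the 11 fits that leave out 1 library, that of Mfsd8 in 3, Acp5 in 6, Galc in 7, Lamtor2 in 8 and Tcirg1 in 10, and those of Ctss and Atp6v0d2 in all 11.

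With OSK, Ctsk, 1 of the 12 cathepsins and legumain, and Scarb2, 1 of the 16 other membrane and sorting proteins, were called higher, and no other gene of these lists was called, where 0.408% of all tested genes were called higher. Ctsk was at 18.28, 17.32 and 21.63 CPM in Old control and at 32.09, 51.88, 40.66 and 34.98 CPM in Old OSK, and rose by 1.06 ± 0.19 (log2, edgeR adjusted p 0.015). Scarb2, which encodes the lysosomal membrane protein LIMP-2 that carries beta-glucocerebrosidase, was at 120.7, 122.4 and 126.0 CPM in Old control and at 166.2, 193.0, 168.5 and 150.9 CPM in Old OSK, and rose by 0.46 ± 0.08 (adjusted p 0.0159). In both genes all Old OSK libraries were above all Old control libraries, as in 6.55% of all tested genes. Ctsk kept its call in 4 and Scarb2 in 3 of the 7 fits that leave out 1 library, with adjusted p of up to 0.189 over all 18 alternatives. Of the factors related to Tfeb, Mitf was at -0.52 ± 0.17 (adjusted p 0.0924) and Tfe3 at 0.18 ± 0.13 (adjusted p 0.411). By sign, 16 of 23 other hydrolases and cofactors and 10 of 16 nutrient-sensing genes were negative with OSK. So were 7 of 12 cathepsins and legumain, 5 of 9 further V-ATPase subunits and 8 of 16 other membrane and sorting proteins. Each share was below that of the members (30 of 36), where 52.9% of all tested genes were negative. The list medians ran from -0.21 (V-ATPase subunits) to 0.03 (membrane and sorting proteins), against -0.2 for the 36.

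Set side by side, 26 of the 36 genes (72.2%) had negative fold changes in both Old against Young and Old OSK against Old control. Among all tested genes 36.4% did. Taken singly, 31 of the 36 were negative in the first contrast and 30 in the second, so a high share in both is set by those leans. The share is therefore no measure of a link between the contrasts, which share no library. Opposite signs in these contrasts were found for 9 members. Atp6v0e, Atp6v1d, Atp6v1f and Gusb were positive with age and negative with OSK, each with fold changes between -0.17 and 0.11. Atp6ap2 (-0.2 and 0.09), Asah1 (-0.43 and 0.27), Lamp1 (-0.08 and 0.18), Lamp2 (-0.26 and 0.14) and Tfeb (-0.04 and 0.02) were negative with age and positive with OSK, and among them only the age difference of Asah1 was called.

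Exons of some members overlap those of other genes: 12.8% of the exon length of Hexa with Tmem202, 11.8% of Atp6v0b with Gm12841, 9.3% of Lamp1 with Grtp1, 7.6% of Cln3 with Apobr and 5.5% of Glb1 with Tmppe. The strand setting of the counting is not given in the sources used here, so reads in these stretches cannot be told apart.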

How the data were processed

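Raw read counts per gene were deposited by the authors as 1 table of 21859 rows for 18 libraries. The labels' protocols give TRIzol extraction, SMART-Seq v4 full-length cDNA and Nextera XT libraries. The submitters' processing notes name STAR 2.7.1a, featureCounts 1.6.2 and the builds GRCm38 (mm10) and GRCh38 (hg38) without roles. Annotation and strand setting are not given in the sources used here. PCR duplicates cannot be told from molecules, so counting error is a lower limit.

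The 36 genes, the other lists and the tests were chosen with earlier results of these data known. Rows with few counts were dropped (filterByExpr, edgeR 4.0.16, at least 10 counts and 15 in total). Counts were scaled by TMM and fitted over all 18 libraries with 4 group means (glmQLFit, glmQLFTest, R 4.3.3). P-values were adjusted over all 15944 genes by the Benjamini-Hochberg method, and a gene is called at an adjusted p under 0.05. The SE is the log2 fold change divided by the square root of the test's F value. The fit was tested on simulated data. CPM are edgeR's, as mean ± SD. Replicates of a group differed by at least 20.3 chi-square per gene, so none was merged. Named in full were the called members and, for a role with none, the member with the lowest p, and up to 3 genes of each other list. Others were added after their values were seen. Exon lengths and overlaps come from GENCODE M21, promoters from RefSeq.

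For Old OSK and Old control, libraries with the same number deviated together from their group's mean (r = 0.103, 0.421 and 0.339 across genes). This was treated as a possible pairing of that contrast, in the replicate block only. Some unlike numbers did so too: r was 0.392 for Old OSK replicate 1 with Old control replicate 3. It was 0.185 for Old OSK replicate 4 with Old control replicate 2, and from -0.34 to 0.098 for the other unlike numbers. The check therefore does not establish a pairing. In the other contrasts at least 1 pair of equal numbers did not (Old control against Old: 0.197, -0.189 and 0.359; Old against Young: -0.05, -0.019, 0.144 and -0.193), so no pairing was assumed. Alternatives were DESeq2 1.42.0, its size factors, no filter, the compared groups alone, covariates (M in the library name; rod, macrophage or RPE lists), a replicate block, and leaving libraries out. The RPE covariate, leaving out 2 libraries together and the unpaired fit of the block's libraries were added after seeing the data.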

Additional observations from a re-analysis of the deposited data

Results flagged for a closer look

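Of 108 groups of 4 or 7 libraries of the 36 genes, 6 had a library that stood apart from the rest of its group, and chance marks about 1 in 20 groups. Old replicate 4 was the low library for Atp6v0a1 (261.5 CPM, the next at 378.4), Psap (3288 CPM, the next at 5911) and Mcoln1 (40.65 CPM, the next at 53.1). This library also had the lowest summed RPE markers of its group, 27620 CPM. Old OSK replicate 2 was the low library for Atp6v0c (329.3 CPM, the next at 358.8) and Cln3 (20.91 CPM, the next at 26.46), and it had the lowest summed RPE markers of all libraries, 15520 CPM. Old OSK replicate 3 was low for Atp6v1c1, at 82.97 CPM with the next at 91.68. Old control, with 3 libraries, was too small for this check.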

How the results depend on the processing

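The count of members called lower in Old against Young was 2, where 4.16% of all genes were called lower. Percentages below are these shares of all genes. It was 1 with DESeq2's size factors (3.15%), without the low-count filter (1.91%), and with M (1.79%) or the rod list (1.27%) as a covariate. It was also 1 without Old replicate 4 and Old control replicate 2 together (1.74%). It was 0 with the macrophage list as a covariate (0.0%, Atp6v1a then 0.11), a fit that can hardly separate age from the list. It was also 0 with the replicate block (0.0%), in the same libraries unpaired (0.569%), and without the libraries named M (0.569%), the last 2 being the same 8 libraries. It was 3 with DESeq2 (6.02%) and with the RPE list as a covariate (3.92%), which also called 1 member higher (2.98% of all genes higher). It ranged from 1 to 4 with 1 library left out (1.01% to 4.62%), the highest without Old replicate 1 (4.51%). In Old OSK against Old control it was 0 (0.32%), and 1 with DESeq2 (4.55%). It was 21 (14.0% of all genes lower) without Old replicate 4 and Old control replicate 2 together, and 0 to 13 with 1 library left out (0.00618% to 11.6%). Pairing by number changed no member's call there: with the replicate block 0 were called, and 28 of 36 fold changes were negative. No member was called higher or lower in Old control against Old under the alternatives run. All genes called numbered 1524 with age (0 with the macrophage list or the block, 191 in the unpaired libraries, 492 with the rod list, 600 with M, 622 without both libraries, 2452 with DESeq2, 393 to 2140 with 1 library left out). With OSK they numbered 116 (2 with the groups alone, 16 with the RPE list, 30 with the macrophage list, 58 with M, 461 with the block, 990 unpaired, 1640 with DESeq2, 3729 without both libraries, 13 to 2881 with 1 left out). Each of the 36 genes had at least 386 counts per library, and counting error was not separated from the spread between libraries. The causes of these shifts were not tested.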
